A study of Mus musculus with 4 samples.

Results

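Small nucleolar RNAs (snoRNAs) and small Cajal body RNAs (scaRNAs) were measured in regulatory T (Treg) cells without and with CYLD. All probe sets annotated with exactly 1 gene symbol starting with Snora, Snord or Scarna were taken, 60 in number, and the probe set with the highest mean over the arrays was kept for each gene. This gave 54 genes of 19938 on the array with a single-symbol probe set: 20 H/ACA box RNAs (Snora), 31 C/D box RNAs (Snord) and 3 Cajal body RNAs (Scarna). The CYLD KO group was YFP+ Treg cells of Cyld fl/fl Foxp3-yfp-cre mice, and the WT group was YFP+ Treg cells of Cyld+/+ Foxp3-yfp-cre mice, with 2 arrays each. All mice were on the C57Bl6 background, were 6 to 8 weeks old and carried the Cre recombinase, which is driven from Foxp3, so the controls have it too. Labels name both spleen with lymph nodes and spleen alone as the source, and do not say whether replicates came from separate mice or from pools. The p-values therefore rest only on the spread between these samples, which may be technical. That spread was pooled over all genes tested, so a gene's own replicates had no separate weight in its standard error.

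Small nucleolar RNAs are guide RNAs that base-pair with other RNAs and direct enzymes to single nucleotides. C/D box RNAs direct methylation of the ribose by fibrillarin, H/ACA box RNAs direct the conversion of uridine to pseudouridine by dyskerin, and a few of either kind act in the cleavage of the ribosomal RNA precursor. Cajal body RNAs guide the same modifications in spliceosomal RNAs. Most mammalian snoRNAs lie in introns of other genes, often genes for ribosomal proteins or for noncoding RNAs, and are trimmed from the spliced intron.

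Cyld read 284 and 218 intensity units on the CYLD KO arrays, against 524 and 502 on the WT arrays. This is a log2 fold change of -1.04 ± 0.17 (SE, limma adjusted p = 8.96e-08); the probes may lie outside the deleted exons, which the labels do not name. The 6 Treg markers examined, Cd4, Cd3e, Foxp3, Il2ra, Ctla4 and Ikzf2, read between 1160 and 3615 in CYLD KO cells and between 1059 and 3264 in WT cells. Median intensities over all probe sets were 103 and 99.0 on the CYLD KO arrays and 101 and 105 on the WT arrays, and the number of arrays limits the precision. Over all genes tested, 3.50% were lower and 4.79% higher in CYLD KO cells. Of 14 macrophage markers, 12 were bright enough to be tested, of which 11 were lower and 0 higher in CYLD KO cells. Their summed intensity was 1327 and 1595 in CYLD KO cells against 3196 and 2986.5 in WT cells, with 0 markers listed at 0. Of 13 proliferation genes 11 were higher. Their median log2 difference from the WT mean was 0.50 on CYLD KO replicate 1 and 1.28 on replicate 2. The part of either shift in the values below was not tested. In bulk arrays, fewer cells of a type and less RNA per cell cannot be told apart.

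The small RNAs were lower in CYLD KO cells. Of the 54 genes, 43 lay above the brightness filter (the 30th percentile of mean log2 intensity over all genes, an intensity of 77.4) and entered the limma test over 13956 genes. In CYLD KO cells 18 of these 43 fell and 0 rose at an adjusted p under 0.05, or 41.9% lower, against a background of 3.50% lower and 4.79% higher (8.30% in either direction) over all genes tested. The log2 fold change was below 0 in 48 of all 54 members, against 51.9% of all genes. The median log2 fold change was -0.34 over the 54 members and -0.01 over all genes. CYLD KO and WT arrays did not overlap, with CYLD KO lower, for 28 of the 43 tested members; over all genes tested that share was 26.2%, and 22.5% had CYLD KO higher without overlap. These calls rest on a standard error of 0.17 pooled over all genes. With each gene's own variance instead, an alternative added after the data were seen, 0 genes of any kind passed, Cyld included, with a smallest adjusted p of 0.208 over the table. At an unadjusted p under 0.05 there were 10 of the 43 tested members and 1814 of all 13956 genes.

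**Figure D1:**
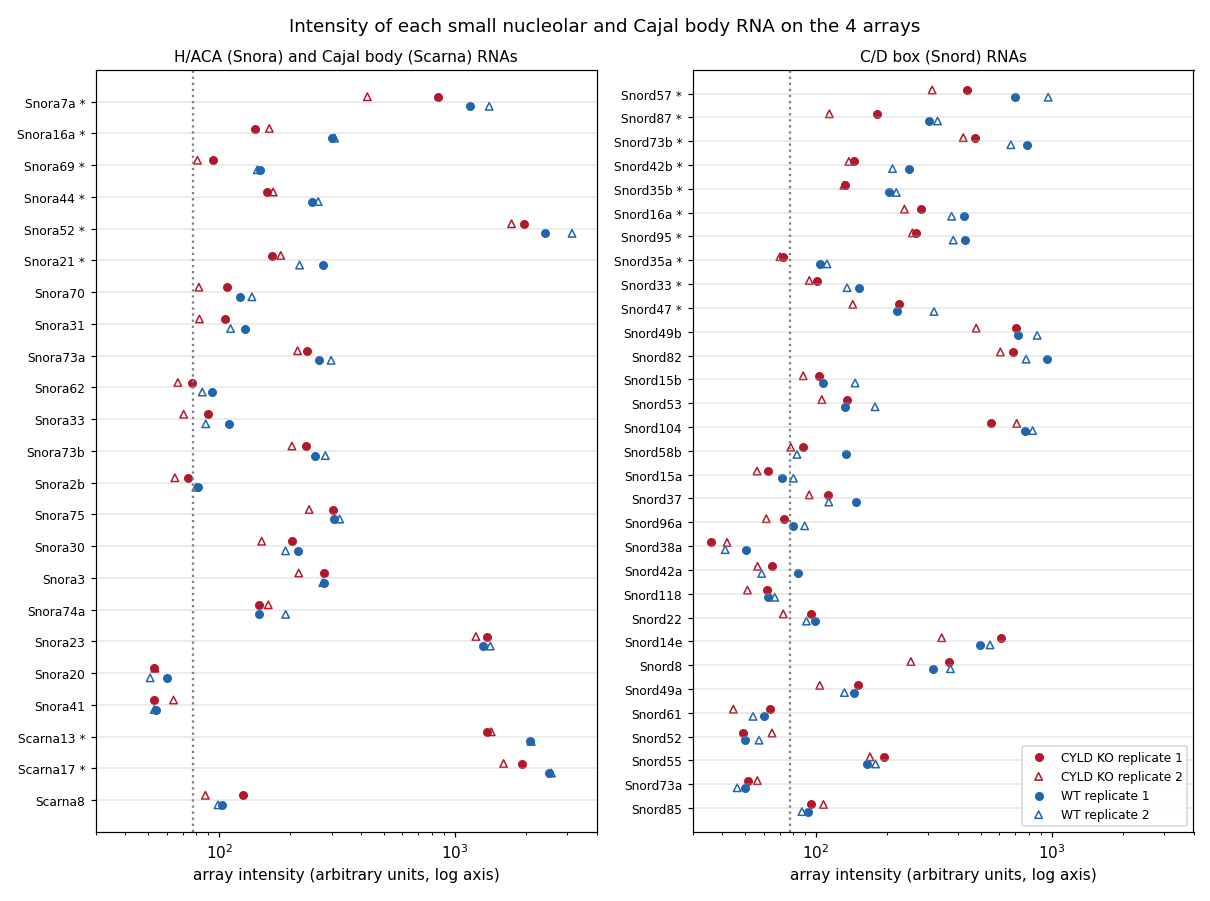
Array intensity (log axis, arbitrary units) of each of the 54 RNAs, with CYLD KO arrays in red above WT arrays in blue, circles for replicate 1 and triangles for replicate 2. An asterisk marks the 18 RNAs that were lower in the limma test, and the dotted line is the brightness filter at 77.4, which acts on the mean of the log2 values.

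Among H/ACA box RNAs, 6 of 17 tested fell and 0 rose, 35.3% of those tested. Snora7a, which lies in the ribosomal protein gene Rpl32, read 850.1 and 426 in CYLD KO cells against 1166 and 1399.95 in WT cells. limma gave a log2 fold change of -1.09 ± 0.17 (SE; adjusted p = 1.89e-08), and the CYLD KO mean was 49.7% of the WT mean. Both CYLD KO values lay below both WT values, but CYLD KO replicate 2 was far below replicate 1; without replicate 2 the log2 fold change was -0.59 and still passed (adjusted p = 0.0205). Snora16a read 142 and 163 in CYLD KO cells against 301 and 309 in WT cells, a log2 fold change of -0.996 (limma adjusted p = 3.79e-07). Its replicates lay close together in each group, with the groups well apart. Snora44, which shares the noncoding host Snhg12 with Snora16a, read 159.7 and 169.6 in CYLD KO cells against 248 and 263 in WT cells (log2 fold change -0.63, limma adjusted p = 0.00449).

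Snora69, held by the ribosomal protein gene Rpl39, read 93.9 and 80.9 in CYLD KO cells against 149 and 145 in WT cells (log2 fold change -0.75, limma adjusted p = 0.000361). Snora52, in Rplp2, had the highest intensity of all members and read 1965 and 1742 in CYLD KO cells against 2418 and 3146 in WT cells (log2 fold change -0.58, adjusted p = 0.0123). Snora21, in Rpl23, read 168 and 183 in CYLD KO cells against 277 and 219 in WT cells (log2 fold change -0.49, adjusted p = 0.0471). Groups did not overlap for any of these 3, but Snora21 passed only narrowly, and its adjusted p was 0.069 once replicate numbers entered the model as a block and 0.702 without WT replicate 1. Snora23, held by the importin gene Ipo7, read 1367 and 1229 in CYLD KO cells against 1313 and 1414 in WT cells. Its log2 fold change of -0.07 had a 95% interval from -0.40 to 0.26, which does not reach the log2 fold change of Snora7a.

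The other 10 tested H/ACA RNAs did not pass, and all of them had values below 0. The nearest to the threshold was Snora70, in the ribosomal protein gene Rpl10, with a log2 fold change of -0.46 (limma adjusted p = 0.0741), singled out after its value was seen. Snora73a and Snora73b, near-identical copies in Snhg3 that act in precursor cleavage, gave log2 fold changes of -0.32 for Snora73a and -0.29 for Snora73b, and their signals are uncertain because the copies can share probes. Snora20, Snora2b and Snora41 lay below the filter.

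Among C/D box RNAs, 10 of 23 tested fell and 0 rose, 43.5% of those tested. Snord57 had the lowest log2 fold change of all members. It lies in Nop56, a gene for a core protein of the C/D box particle itself, and read 437 and 311 in CYLD KO cells against 701 and 967 in WT cells. This gave a log2 fold change of -1.16 ± 0.17 (SE; limma adjusted p = 1.4e-09), with a 95% interval from -1.49 to -0.82. Snord87, in the noncoding host Snhg6, read 181 and 114 in CYLD KO cells against 302 and 328 in WT cells (log2 fold change -1.13, adjusted p = 4.02e-09). The CYLD KO mean was 44.9% of the WT mean for Snord57 and 46.8% for Snord87, the groups did not overlap, and replicate 2 was the lower CYLD KO array.

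A second set of C/D box RNAs lies in genes of ribosomal proteins or of Rack1, a scaffold protein of the small ribosomal subunit. Snord73b, in Rps3a1, read 474 and 422 in CYLD KO cells against 787 and 671 in WT cells (log2 fold change -0.70, limma adjusted p = 0.00114). Snord42b, in Rpl23a, read 145 and 138 in CYLD KO cells against 249 and 211 in WT cells (log2 fold change -0.69). In both RNAs the CYLD KO replicates lay closer to each other than to any WT value. Snord16a, in Rpl4, read 280.3 and 237 in CYLD KO cells against 424 and 376 in WT cells (log2 fold change -0.63). Snord95, in Rack1, read 266 and 256 in CYLD KO cells against 427 and 382 in WT cells (log2 fold change -0.63). Snord35a, in Rpl13a, read 72.7 and 70.3 in CYLD KO cells against 104 and 111 in WT cells (log2 fold change -0.58). Groups did not overlap for these RNAs, and the limma adjusted p-values of the 4 after Snord73b ran from 0.00135 for Snord42b to 0.0114 for Snord35a.

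The remaining C/D box RNAs that fell were Snord35b and, named after their values were seen, Snord33 and Snord47. Snord35b read 133 and 131 in CYLD KO cells against 205 and 219 in WT cells (log2 fold change -0.68, limma adjusted p = 0.00182), with the groups well apart. Snord33, also in Rpl13a, read 101 and 93.6 in CYLD KO cells against 152 and 135 in WT cells (log2 fold change -0.56). Snord47, in the noncoding host Gas5, read 225 and 143 in CYLD KO cells against 219.7 and 317 in WT cells (log2 fold change -0.55, limma adjusted p = 0.0179). Its groups overlapped, since CYLD KO replicate 1 lay above WT replicate 1, and its adjusted p was 0.537 without CYLD KO replicate 2 and 0.645 without WT replicate 2.

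The 3 C/D box RNAs of highest mean intensity did not pass. Snord82, in the nucleolin gene Ncl, read 687 and 606 in CYLD KO cells against 953 and 779 in WT cells (log2 fold change -0.42, limma adjusted p = 0.121). Snord104 read 552 and 711 in CYLD KO cells against 768 and 831 in WT cells (log2 fold change -0.35, adjusted p = 0.22). Snord49b read 705 and 478 in CYLD KO cells against 720.3 and 868 in WT cells (log2 fold change -0.44, adjusted p = 0.0865). All of these were lower in every CYLD KO array than in either WT array, by less than the test required, and single arrays moved them across the threshold. Without CYLD KO replicate 1, Snord49b (log2 fold change -0.72, adjusted p = 0.00262) and Snord82 (-0.51, adjusted p = 0.0483) passed, while Snord104 was at -0.17. Without CYLD KO replicate 2, Snord104 passed (-0.53, adjusted p = 0.0457), while Snord49b was at -0.17. With an intensity trend in the variance model, Snord49b (adjusted p = 0.0303) and Snord82 (adjusted p = 0.042) passed. Over the 13 tested C/D box RNAs that did not pass, the log2 fold changes ran from -0.44 to 0.18, with 11 below 0. The highest was that of Snord85, at 95.6 and 108 in CYLD KO cells against 92.2 and 87.1 in WT cells (log2 fold change 0.18, adjusted p = 0.609).

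Among Cajal body RNAs, 2 of 3 fell. Scarna13, in the noncoding host Snhg10, read 1368 and 1428 in CYLD KO cells against 2086 and 2110 in WT cells (log2 fold change -0.59, limma adjusted p = 0.0104). Scarna17 read 1927 and 1611 in CYLD KO cells against 2501 and 2573 in WT cells (log2 fold change -0.53, adjusted p = 0.0281). Groups did not overlap for either RNA, and the WT replicates of each were nearly equal. Neither passed without WT replicate 1 (adjusted p = 0.211 for Scarna13 and 0.306 for Scarna17) or without WT replicate 2 (0.212 and 0.328), and Scarna17 did not pass without CYLD KO replicate 2 (0.2). Scarna8, in the gene of the centrosomal protein Haus6, read 127 and 87.4 in CYLD KO cells against 103 and 98.9 in WT cells (log2 fold change 0.06, adjusted p = 0.88), with the WT values inside the CYLD KO range.

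H/ACA and C/D box RNAs had similar shifts. The median log2 fold change was -0.31 for the 20 H/ACA RNAs (middle 50% from -0.51 to -0.20) and -0.35 for the 31 C/D RNAs (middle 50% from -0.57 to -0.19). The difference of the medians, H/ACA minus C/D, was 0.04, and it ran from -0.05 to 0.12 when each array was left out in turn, on both sides of 0. Between replicates, the difference of the class medians of log2 intensity within an array had an SD of 0.22. That is a spread of intensities and not of fold changes, so it does not measure the spread of the 0.04. Set against the WT mean, the median log2 difference of H/ACA RNAs was -0.19 on CYLD KO replicate 1 and -0.42 on replicate 2, and that of C/D RNAs was -0.23 and -0.46. Both classes were thus lower on both CYLD KO arrays, and further down on replicate 2, on which 42 of the 54 members read lower than on replicate 1 and on which the median of the proliferation genes was the higher one. Whether these move together was not tested. Members are not replicates of a genotype, so these medians carry no test.

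**Figure D2:**
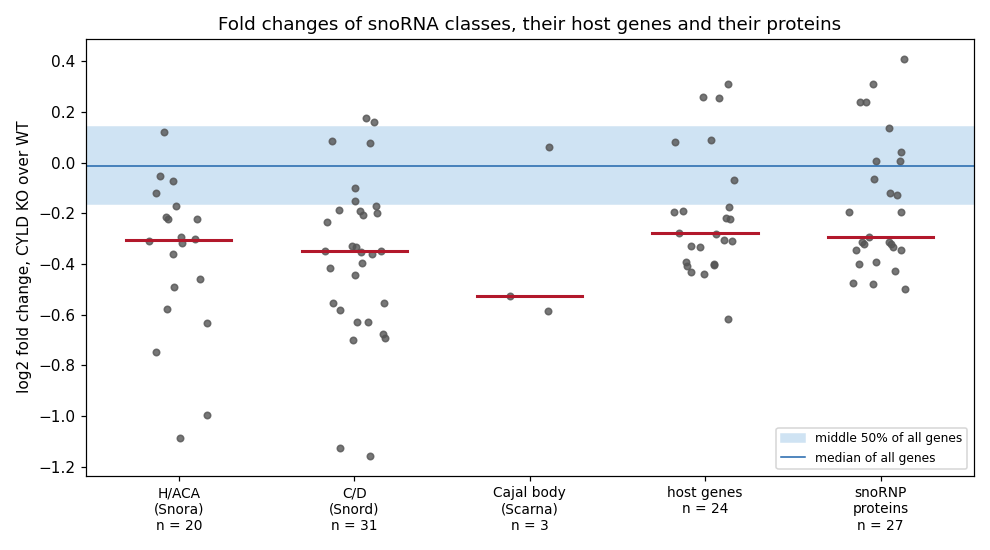
Log2 fold change, CYLD KO over WT, of every measured gene in 5 groups, 1 point per gene with the group's median as a red line. The blue band holds the middle 50% of all genes and the blue line their median of -0.01. The medians of the H/ACA, C/D and Cajal body RNAs are -0.31, -0.35 and -0.53, and those of host genes and snoRNP proteins are -0.28 and -0.29.

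The 11 members below the filter were dim in both groups, with intensities from 35.7 to 73.5 in CYLD KO cells and from 41.2 to 89.5 in WT cells. Their log2 fold changes ran from -0.35 to 0.16, with 8 of 11 below 0, and with every gene tested the smallest adjusted p among them was 0.26. Among them were Snord118, an RNA with no host in the gene table that acts in precursor cleavage, and 5 that share a host with a tested member. No detection call comes with these values, and none is near 0, which shrinks the fold of a dim probe set. Intensities of different probe sets do not rank RNA amounts, so the next values describe signal on the array. Across the 54 members the Spearman correlation of mean log2 intensity with log2 fold change was -0.47, a description over RNAs that share arrays and hosts; over all genes tested it was -0.01. Of the 22 brighter tested members, at a mean intensity of 208 or more, 12 fell, with a median log2 fold change of -0.51. Of the 21 dimmer ones 6 fell, with a median of -0.35. Among all 5612 tested genes as bright as the first set, 5.08% were lower and the median log2 fold change was -0.02. No such share was taken for genes as dim as the second set, and over all genes tested 3.50% were lower.

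Calls of members that share a host can be set side by side only where both were tested. In Snhg12 and in Rpl13a both measured members fell, and in Ncl, Snhg3 and 2410006H16Rik neither tested member passed. In 3 further hosts the second member was too dim to be tested. In Rps3a1, Snord73b fell, while Snord73a read 51.6 and 56.3 in CYLD KO cells against 50.05 and 46.3 in WT cells. In Rpl23a, Snord42b fell and Snord42a, also below the filter, had a log2 fold change of -0.21. In the Rack1 gene Snord95 fell and Snord96a, below the filter, had a log2 fold change of -0.33.

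A host was taken as the shortest gene of the RefSeq table (assembly GRCm38.p6) that spans the member. That table gives no strand, so a host on the opposite strand would not be recognised. Of the 54 members, 53 had such a gene, 43 different genes in all, and 10 hosts held more than 1 member. Only 24 hosts had a probe set of their own with a single symbol, covering 28 members. Split by kind of host, 10 of 17 tested members in ribosomal protein genes fell (58.8%). So did 6 of 14 in noncoding hosts (42.9%) and 2 of 12 in other protein-coding genes (16.7%). The share was 41.9% over all tested members and 3.50% over all genes tested. Whether the kinds of host differ was not tested.

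Host genes passed at a rate near the background. Of 24 host genes tested, 1 fell and 0 rose, which is 4.17% lower against the background of 3.50% (0 of 10 among ribosomal protein hosts), with 19 of 24 log2 fold changes below 0 and a median of -0.28. Gas5, a noncoding RNA whose introns hold many C/D box RNAs, read 1477 and 833 in CYLD KO cells against 1448 and 2005 in WT cells (log2 fold change -0.62, limma adjusted p = 0.00586). As with Snord47, CYLD KO replicate 1 overlapped the WT range, and 0 hosts were lower without CYLD KO replicate 2, without WT replicate 2 or with the mean of probe sets. All 10 ribosomal protein hosts had values below 0, with a median log2 fold change of -0.32, and 0 of them passed. With an intensity trend in limma's variance model 11 hosts were lower, Rpl23, Rpl23a, Rpl4 and Nop56 among them.

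**Figure D3:**
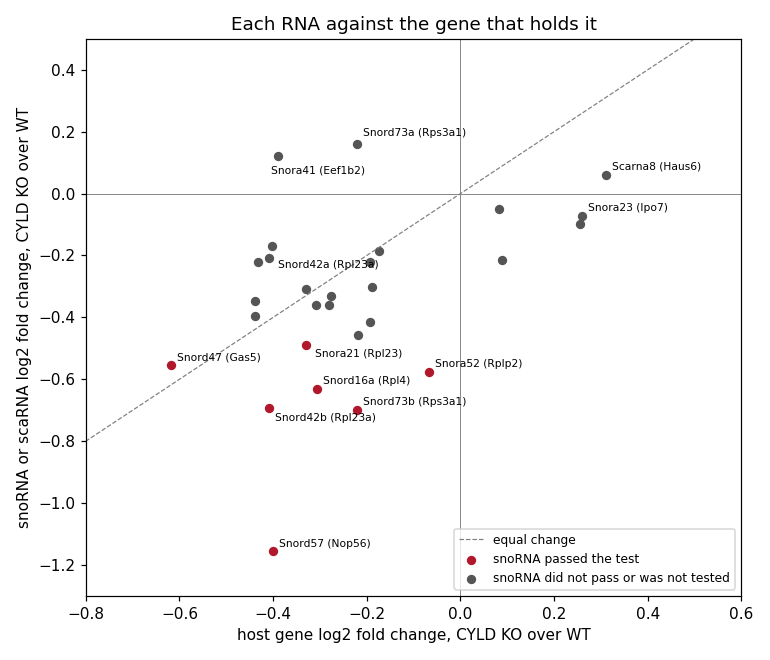
Log2 fold change of each of 28 RNAs (vertical axis) against that of its host gene (horizontal axis), CYLD KO over WT, with RNAs that passed the test in red and the dashed line marking equal change. Snord57, Snord73b and Snora52 lie far below the line, and Snord47 lies next to it.

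For the 28 pairs with both values, the median log2 fold change was -0.32 for the small RNAs and -0.28 for their hosts, and 19 of 28 small RNAs had the lower value. In 1 pair both fell, Snord47 and Gas5, and in 6 pairs the small RNA fell while the host did not pass. Nop56 read 665 and 737 in CYLD KO cells against 945 and 903 in WT cells, a log2 fold change of -0.40 (limma adjusted p = 0.143) beside -1.16 for Snord57. Rps3a1 had a log2 fold change of -0.22 beside -0.70 for Snord73b. Rplp2 had -0.07 beside -0.58 for Snora52, although the host's value was 0.16 without CYLD KO replicate 1. Ipo7 and Haus6, which hold Snora23 and Scarna8, did not pass, at log2 fold changes of 0.26 for Ipo7 and 0.31 for Haus6. Whether any small RNA differed from its host was not tested. Across the 28 pairs the Spearman correlation was 0.38 and Pearson's r was 0.43, given as a description, since pairs share arrays and some share a host.

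Promoters of 32 of the 43 hosts were in the RefSeq promoter table (GRCm38.p6), each running from 250 bases before to 50 bases after a start site. The letters CTTT, part of the pyrimidine-rich start typical of genes of the translation machinery, were searched within 10 bases on each side of the start site on the gene's own strand. They were present for 9 of 32 hosts (28.1%) and for 9.13% of all 27025 genes in the table, and on the opposite strand for 3.12% of hosts and 8.63% of genes. The letters CACGTG, the palindromic E-box that Myc can bind, were present anywhere in the 300 bases for 6 of 32 hosts (18.8%) and 8.09% of genes, and do not overlap the first motif. Among the 11 listed hosts with a fallen member, 5 held CTTT (45.5%) and 2 held CACGTG (18.2%). The 4 promoters below were picked from these 11 and do not stand for them. They include a host with 2 fallen members (Snhg12) and the host that fell (Gas5, the second of its 2 listed starts). Rplp2 and Nop56 each hold a fallen member but did not pass themselves. Rpl13a, also with 2 fallen members, holds CACGTG and no CTTT near its start, and the first Gas5 start holds neither. Matches are in capitals, all 4 are on the plus strand, and a match is a description, not a site.
Snhg12 chr4:132308428-132308727: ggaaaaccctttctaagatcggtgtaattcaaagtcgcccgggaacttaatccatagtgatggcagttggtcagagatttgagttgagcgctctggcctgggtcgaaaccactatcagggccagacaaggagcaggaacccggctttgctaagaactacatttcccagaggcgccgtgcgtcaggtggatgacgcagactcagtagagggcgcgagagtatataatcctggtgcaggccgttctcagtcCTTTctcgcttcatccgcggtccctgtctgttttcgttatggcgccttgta
Gas5 chr1:161034916-161035215: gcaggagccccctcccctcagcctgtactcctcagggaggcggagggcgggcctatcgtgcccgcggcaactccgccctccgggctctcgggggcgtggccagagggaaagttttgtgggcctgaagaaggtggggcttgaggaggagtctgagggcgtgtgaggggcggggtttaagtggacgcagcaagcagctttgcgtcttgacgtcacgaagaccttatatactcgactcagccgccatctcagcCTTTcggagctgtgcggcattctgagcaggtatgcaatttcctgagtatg
Rplp2 chr7:141447401-141447700: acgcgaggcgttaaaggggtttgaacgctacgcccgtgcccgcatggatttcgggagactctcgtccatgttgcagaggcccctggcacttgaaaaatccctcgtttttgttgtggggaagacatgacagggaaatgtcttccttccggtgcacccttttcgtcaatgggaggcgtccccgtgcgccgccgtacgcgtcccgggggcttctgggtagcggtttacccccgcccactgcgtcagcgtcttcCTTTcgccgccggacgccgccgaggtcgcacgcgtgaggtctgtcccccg
Nop56 chr2:130274162-130274461: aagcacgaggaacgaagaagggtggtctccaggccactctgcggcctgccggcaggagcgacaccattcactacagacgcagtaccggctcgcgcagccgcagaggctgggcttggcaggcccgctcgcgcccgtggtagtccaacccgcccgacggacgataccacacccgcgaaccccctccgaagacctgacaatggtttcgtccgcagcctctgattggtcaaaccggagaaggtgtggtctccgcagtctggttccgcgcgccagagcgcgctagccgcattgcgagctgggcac
The first 3 hold CTTT right at the start site, the promoter of Nop56 holds neither motif, and none of the 4 holds CACGTG.

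Few genes for the proteins of the particles passed. Of 27 such genes, 26 were tested, 1 fell (3.85%, near the background of 3.50%) and 0 rose, with a median log2 fold change of -0.29. The gene that fell was Dkc1, which encodes dyskerin, the pseudouridine synthase of H/ACA particles. It read 252 and 265 in CYLD KO cells against 389 and 344 in WT cells (log2 fold change -0.50, limma adjusted p = 0.0415), and its groups did not overlap. Its adjusted p was 0.0615 with replicate numbers in the model as a block, 0.0708 without CYLD KO replicate 1, 0.583 without WT replicate 1 and 0.196 without WT replicate 2. Fbl, the methyltransferase fibrillarin of C/D particles, read 419 and 631 in CYLD KO cells against 668 and 616 in WT cells (log2 fold change -0.32, adjusted p = 0.276), with CYLD KO replicate 2 inside the WT range. Fbl passed without that array (log2 fold change -0.61, adjusted p = 0.0132) and was at -0.02 without CYLD KO replicate 1. All 4 H/ACA core genes (Dkc1, Nhp2, Nop10 and Gar1) and 3 of the 4 C/D core genes (Nop56, Nop58 and Fbl) had values below 0. Snu13, the fourth C/D core protein, had a log2 fold change of 0.31 and did not pass. The R2TP assembly genes Ruvbl1, Ruvbl2, Pih1d1 and Rpap3 ran from -0.06 to 0.24. The 5 genes of Cajal and nucleolar bodies had a median log2 fold change of 0.04, with 3 above 0 and 2 below. Wrap53, one of these 5 and singled out after its value was seen, had the highest value of the 27 (0.41, limma adjusted p = 0.127). Of all 27 genes, 19 had values below 0 and 8 above. Of 11 genes of ribosome biogenesis, 2 fell (18.2%, against the same background), Polr1b of RNA polymerase I (log2 fold change -0.51) and the transcription factor gene Myc (-0.998), both named after their values were seen.

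Of 12 other small RNAs outside the symbol rule, microRNAs apart, 7 were tested, of which 3 fell and 0 rose. Over all genes tested, 3.50% were lower and 4.79% higher. Terc, the telomerase RNA, which carries an H/ACA domain bound by dyskerin, read 1130 and 962 in CYLD KO cells against 1729 and 1722 in WT cells (log2 fold change -0.73, limma adjusted p = 0.000631). Rnu3a, a C/D box RNA that acts in precursor cleavage, read 91.4 and 84.8 in CYLD KO cells against 124 and 124 in WT cells (log2 fold change -0.49, adjusted p = 0.0489). Rnu3a passed only narrowly, and its limma adjusted p was 0.0542 with every gene tested. Rmrp, the RNA of RNase MRP, read 1784 and 986 in CYLD KO cells against 1905 and 2150.1 in WT cells (log2 fold change -0.61, adjusted p = 0.00687). These 3, named after their values were seen, had groups that did not overlap. The other 4 tested did not pass: the log2 fold change was -0.30 for Rpph1, the RNA of RNase P, -0.26 for the spliceosomal Rnu12, -0.01 for Rny3 and -0.07 for Rn7sk. Rn7sk, the RNA that holds back the elongation kinase, read 6672 and 6698 in CYLD KO cells against 6936 and 7058 in WT cells (adjusted p = 0.871). Of 128 tested microRNA genes, 4 fell and 0 rose, 3.12% lower against the background of 3.50%, with a median log2 fold change of -0.08.

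Probe sets with several symbols were left out by the rule, 41 of them with a snoRNA among their genes. Of these, 24 were copies of Snord116, known from neurons, at 6 distinct sets of values between 42.1 and 68.0 on all arrays. All 24 had a log2 fold change below 0 (median -0.34), at intensities below the filter where no test was made. Of the other 17, 15 were below 0, with a median of -0.22, while 51.9% of all genes were below 0. These 17 are not all separate either. The probe sets of Snora19 hold equal values, as do those of Snord1b and Snord1c, and those of Snord14c and Snord14d cover the same genes. The strongest of the 17 was the probe set shared by Snord32a and Rpl13a at -0.90. For 6 members a second probe set existed, and in 3 of these both probe sets held equal values on every array.

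The number of calls depended on single arrays. Without WT replicate 1, 6 members were lower, without WT replicate 2, 7, without CYLD KO replicate 1, 23, and without CYLD KO replicate 2, 14. Snord57, Snord87, Snora7a and Snora16a were lower each time, which makes 4 of the 18. Over the 18 RNAs every log2 fold change stayed below 0 in these 4 fits. The lone array of a group is assumed there to vary like the other group. The remaining 14 each failed to pass in at least 1 of the 4 fits.

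**Figure D4:**
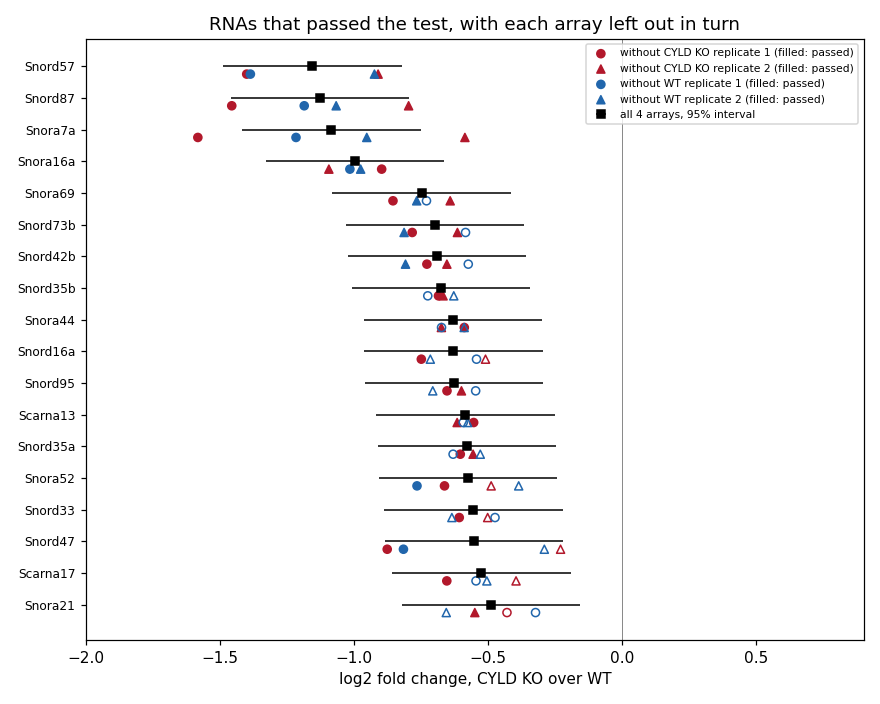
Log2 fold change, CYLD KO over WT, of the 18 RNAs that passed (black squares with 95% interval) and the same with each array left out, with CYLD KO arrays in red and WT arrays in blue and filled symbols where the RNA still passed. Only Snord57, Snord87, Snora7a and Snora16a keep 4 filled symbols, and all points lie left of 0.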

How the data were processed

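Biotinylated cRNA of sorted Treg cells was measured on 4 arrays, per the labels' protocols. The authors deposited array intensities, which are linear by their range (26.6 to 7205), with a single value for each probe set; summarisation, background correction and scaling are not given in the sources used here. Probe sets were named from the platform annotation (35557 in all: 21789 with 1 symbol, 1621 with several, 12147 with none listed); 21695 identifiers matched RefSeq. Intensities were converted to log2(value + 1), and fold changes are on that scale. Tests covered genes whose mean log2 intensity exceeded the 30th percentile and were made with limma 3.58.1 in R 4.3.3 (lmFit, eBayes; the prior degrees of freedom were infinite), Benjamini-Hochberg adjusted over 13956 genes at a threshold of 0.05, and the fit was tested on simulated data. Members and lists were chosen with earlier results of these data known. Named members were, per class, up to 8 higher and 8 lower (4 and 4 for Scarna) by fold change among those that passed with groups apart, plus the 3 brightest; also Dkc1, Fbl, protein genes that passed, and hosts of named members. The planned host rule asked for the same strand, which the gene table does not give. Alternatives covered the filter, scaling, pseudocount, variance model, array weights, probe set choice, copied families, the replicate number as a block and leaving out each array. Results that need certain withheld items are not reported here.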

Additional observations from a re-analysis of the deposited data

How the results depend on the processing

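The count of 18 lower members and 0 higher lay between 17 and 19 lower under other filters, scalings, pseudocounts, array weights, an intensity trend, the mean of probe sets and the replicate number as a block (17 lower). Leaving out the 12 members of families with copies gave 14 lower, with 6 C/D RNAs instead of 10. Quantile normalization left 1 Cajal body RNA lower. Without pooling of variances, added after seeing the data, 0 members, H/ACA, C/D, Cajal body, protein or host genes were lower; no gene of the table passed that fit (smallest adjusted p 0.208), so these counts say nothing about the lists, and 1814 genes had an unadjusted p under 0.05. With 1 array left out, lower counts ran from 6 to 23 for members, 3 to 7 for H/ACA, 3 to 14 for C/D, 0 to 2 for Cajal body RNAs, 0 to 2 for protein genes and 0 to 1 for hosts. The H/ACA median then ran from -0.42 to -0.19 and the C/D median from -0.46 to -0.23. Protein genes lower numbered 3 with the filter at the median or an intensity trend, 2 with quantile normalization or 16 added before the logarithm, and 0 with the replicate block. Hosts lower numbered 11 with an intensity trend and 0 with the mean of probe sets. Signs turned for Snora23, Scarna8 and Rplp2, all far from the threshold. With each array left out, the log2 fold change of Snora23 ran from -0.15 to 0.0051 (without CYLD KO replicate 2), that of Scarna8 from -0.20 (without CYLD KO replicate 1) to 0.33, and that of Rplp2 from -0.29 to 0.16 (without CYLD KO replicate 1). The cause was not tested. Replicate numbers do not pair the samples by the labels; deviations of same-numbered arrays correlated at -0.09.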
